A study of Saccharomyces cerevisiae with 79 samples.

Results

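The 37 introns described here interrupt genes for proteins of the small (40S) ribosomal subunit of budding yeast, Saccharomyces cerevisiae. They were chosen by the systematic identifiers of their genes, all 37 are rows of the deposited tables, and they make up 37 of the 308 introns measured. Of these genes 34 form 17 pairs of an A and a B copy, and RPS13 (YDR064W), RPS25A (YGR027C) and RPS29B (YDL061C) stand without a paired member. The rest of the tables was 59 introns of large subunit and stalk protein genes, 8 introns of small subunit genes that are no members (RPS9A, RPS9B, RPS14A, RPS14B, both introns of RPS22B, RPS25B and RPS29A) and 204 other introns.

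Cells took up 4-thiouracil, which marks newly made RNA, for increasing times. The marked RNA was isolated and sequenced by multiplexed primer extension (MPE-seq): a primer in the downstream exon of each intron is extended towards the intron. The WT series was strain BY4741(WT), with 3 time courses of 10 nominal times from 0 to 990 s. The WT_30 series carried the same strain label, with 2 courses of 10 nominal times from 0 to 3600 s, and received labelled total Schizosaccharomyces pombe RNA as spike-in where the other series received RNAs transcribed in vitro. The prp2-1 series was the strain of that name. Its labels list 29 samples, of which 11 libraries were used, a full first course to 1320 s and the 0 s library of the second, because further columns could not be tied to samples. All groups were grown in synthetic medium, the labels give no temperature, and PRP2 is not among the targeted genes, so the allele could not be checked in these counts. The labels do not say whether courses were separate cultures. The p-values therefore rest on how far courses differed, and those differences may be technical. In the tests of copies that spread was pooled, in part or whole, over pairs.

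Labelled libraries held 929102 to 8128746 intron reads in WT, 4128286 to 11603214 in WT_30 and 320553 to 4430240 in prp2-1, and the 37 introns took 24.2% to 36.5%, 27.8% to 33.4% and 20.4% to 26.3% of them. The prp2-1 libraries at 0 s held 31751 and 37533 reads. Replicate libraries differed by more than counting error in all 41 pairs compared, so none was a duplicate of another. Scaled by the spike-ins, the WT libraries at 0 s amounted to 3.89% to 5.37% of the labelled reads of the members and 0.704% to 0.760% of their unspliced reads.

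Splicing removes an intron in a pair of chemical steps. In the first, the branch point adenosine attacks the 5′ splice site and a lariat intermediate joined to the downstream exon remains, and in the second the exons are joined at the 3′ splice site. Ribosomal protein genes are among the most highly transcribed genes of yeast, hold a large part of its introns, and most exist as duplicated A and B copies from an ancient genome duplication. Prp2 is the DEAH-box ATPase that remodels the assembled spliceosome before the first step, and prp2-1 is a conditional allele of its gene.

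The copies of a pair were nearly alike in their exons and unlike in their introns. For 31 members the R64 reference annotates the intron (256 to 551 nucleotides, median 401), and for the other 6, RPS25A, RPS26A, RPS26B and RPS29B among them, no intron position was used here. Over the 15 pairs with both introns annotated, intron identity ran from 46.9% to 53.6% (median 50.9%), against 78% to 99% (median 95%) over the first 100 coding nucleotides of exon 2. Spliced reads of near-identical copies may therefore have been split between them in a way the sources used here do not state, and the values of each copy are uncertain to that extent. A 5′ splice site of GTATGT was present in 22 of the 31 introns, TACTAAC in 30, and the 3′ splice site was TAG in 16 and CAG in 15. From the branch adenosine to the end of the intron there were 19 to 82 nucleotides, with a median of 39 over 30 introns.

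Shown here are the intron ends, 5′ to 3′, of RPS7 and RPS30, which are among the 3 pairs that differed most between copies in reads that end in this stretch, and of the RPS4 pair, with the longest stretch among members. Capitals mark the branch sequence and the last 3 bases of the intron, read from the RefSeq R64 genome.
RPS7A: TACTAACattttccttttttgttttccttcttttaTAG
RPS7B: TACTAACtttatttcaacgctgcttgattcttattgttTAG
RPS30A: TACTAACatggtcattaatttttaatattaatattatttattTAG
RPS30B: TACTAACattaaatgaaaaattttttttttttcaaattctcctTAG
RPS4A: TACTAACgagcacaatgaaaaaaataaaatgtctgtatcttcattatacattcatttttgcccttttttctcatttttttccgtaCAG
RPS4B: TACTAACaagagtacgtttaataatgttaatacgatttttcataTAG
They lie at chrXV:506301-506338 (plus strand) and chrXIV:443827-443867 (minus) for RPS7A and RPS7B, chrXII:712726-712770 (minus) and chrXV:678380-678425 (minus) for RPS30A and RPS30B, and chrX:702799-702886 (minus) and chrVIII:505248-505294 (minus) for RPS4A and RPS4B. The distances are 32 and 35 nucleotides in RPS7A and RPS7B, 39 and 40 in RPS30A and RPS30B, and 82 and 41 in RPS4A and RPS4B.

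The first measure was the unspliced share, the unspliced reads of an intron as a percentage of all its reads. Summed over 150 to 990 s of each WT course, the median of the 37 members was 1.42% ± 0.22 (SD, n = 3 courses), against 1.62% ± 0.17 for the 59 large subunit introns and 11.9% ± 0.4 for 178 other introns with enough reads. Members differed widely among themselves. RPS18B (YML026C) was lowest, at 0.211%, 0.219% and 0.238% in the 3 courses, and RPS7A (YOR096W) highest, at 18.54%, 26.9% and 36.97%. RPS7A, RPS7B and RPS27A lay above 10% and 10 members below 1%.

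The difference between copies was tested on the log2 ratio of unspliced to spliced reads, A minus B in each course, with limma over all 48 A and B pairs in the tables. The spread was pooled over pairs, and the SE was 0.21 to 0.22 in every member pair. The SE and p-value of a pair therefore do not measure the spread of its own courses. Of the 17 member pairs 13 passed (adjusted p under 0.05), 8 with the A copy higher and 5 with the B copy higher, where 81.2% of all 48 pairs passed. The sign was the same in every course in 13 of the 17 pairs. RPS23, which encodes a protein at the decoding centre, differed most. RPS23A (YGR118W) was unspliced in 4.199%, 4.757% and 5.44% of reads and RPS23B (YPR132W) in 0.485%, 0.516% and 0.689%, so that the A values lay far above the B values in every course. The log2 difference was 3.16 ± 0.21 (SE, adjusted p = 1.08e-25).

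RPS18A was unspliced in 1.05%, 1.21% and 1.25% of reads, above RPS18B in every course (log2 difference 2.40 ± 0.21 SE, adjusted p = 7.71e-19). Rps18 lies in the head of the small subunit. RPS27A (YKL156W), a gene for a zinc-binding protein, gave 15.5%, 17.6% and 22.6% and RPS27B (YHR021C) 4.07%, 4.17% and 8.11%, and the groups did not overlap (2.04 ± 0.21, adjusted p = 3.36e-15). RPS19A was likewise above RPS19B, at 1.39% ± 0.27 against 0.495% ± 0.054 (SD, n = 3; log2 difference 1.49, adjusted p = 6.99e-10).

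In 2 of the 6 pairs with the widest difference the B copy was the less completely spliced one. RPS26B reached 2.22%, 1.83% and 2.11% and RPS26A 0.568%, 0.564% and 0.433% (A minus B -2.004 ± 0.21 SE, adjusted p = 7.59e-15). Rps26 sits where the mRNA leaves the subunit. RPS17B gave 3.49%, 2.92% and 3.86% and RPS17A 0.860%, 0.890% and 1.41% (A minus B -1.76 ± 0.21 SE, adjusted p = 1.61e-12).

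Both copies of RPS7, which encode a protein found in eukaryotic but not bacterial ribosomes, were high. RPS7B (YNL096C) was unspliced in 12.9%, 10.9% and 17.7% of reads, so its range lay under that of RPS7A, and within each course RPS7A was higher (log2 difference 1.22 ± 0.21 SE, adjusted p = 2.83e-07). The log2 differences of the 3 courses were 0.62, 1.59 and 1.45 (SD 0.52), a wider spread than the pooled one. Of the other 4 pairs none passed. RPS16A and RPS16B were at 0.806% ± 0.216 and 0.772% ± 0.074, RPS4A and RPS4B at 1.28% ± 0.30 and 1.35% ± 0.28, and RPS6A and RPS6B at 0.334% ± 0.014 and 0.258% ± 0.070 (SD, n = 3). RPS30A and RPS30B were at 3.26% ± 0.57 and 5.11% ± 4.12, and RPS30B spread from 2.07% in the first course through 3.47% to 9.80% in the third. Counted without the reads that end past the branch point, described further on, the RPS30 difference turned to the A copy (from -0.38 to 1.73, adjusted p = 6.51e-13), and without WT course 1 it passed with the B copy higher (-0.79, adjusted p = 0.00442). Of the members without a partner, RPS13 was at 4.93% ± 0.12, RPS25A at 1.33% ± 0.37 and RPS29B at 0.823% ± 0.174 (SD, n = 3).

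**Figure D1:**
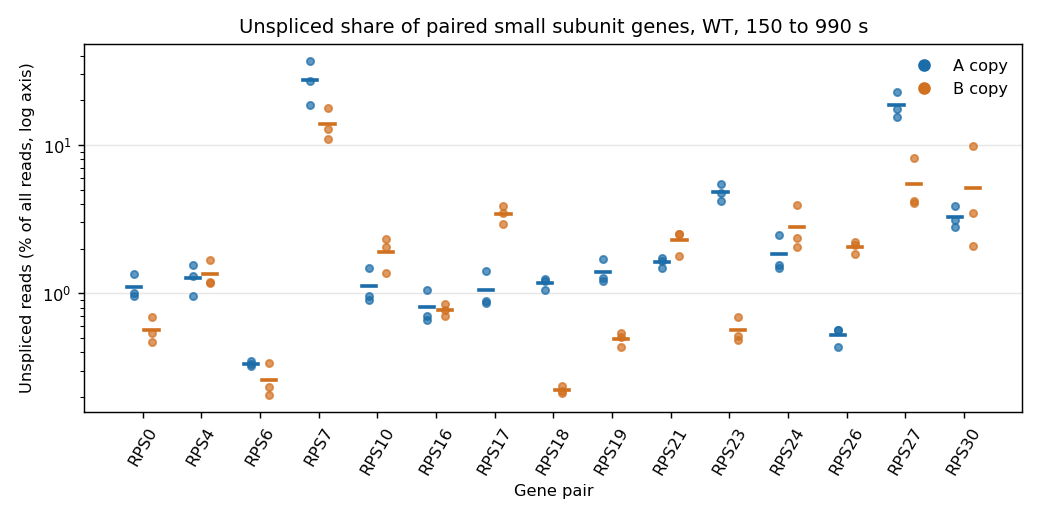
Unspliced reads as a percentage of all reads of an intron (log axis) for 15 pairs in WT, summed over 150 to 990 s. Each point is 1 of 3 time courses and each line the mean, blue for the A copy and orange for the B copy. RPS23A, RPS18A and RPS27A lie above their B copies in all 3 courses, RPS26B and RPS17B above their A copies.

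Unspliced reads were then divided by where they end. In the lariat intermediate, extension stops at the branch point, and a further class of reads, called branch-end reads here, ends downstream of it but inside the intron. The lariat share of unspliced reads in WT (150 to 990 s) had a median over members of 24.3% ± 2.7 (SD, n = 3 courses), against 16.7% ± 1.8 for the large subunit introns and 15.2% ± 1.3 for all 282 introns with enough reads. It was lowest in RPS29B, for a zinc-binding protein, at 1.23%, 0.951% and 1.08%. RPS7A was highest, at 82.6%, 87.7% and 89.8%. The share was above 50% in 8 members and below 5% in 7.

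The copies of a pair were often far apart in the lariat share. Of 17 pairs 14 passed, 9 with the A copy higher and 5 with the B copy higher, beside 80.9% of the 47 pairs tested. The widest difference was in RPS7, where RPS7B gave 18.9%, 20.5% and 10.3%, far below RPS7A in each course (log2 ratio of lariat to other unspliced reads, A minus B, 5.13 ± 0.36 SE, adjusted p = 2.28e-09). RPS30A, whose protein is made as a fusion to a ubiquitin-like protein in mammals, gave 59.7%, 58.0% and 56.6%, and RPS30B 6.55%, 4.22% and 2.60%. These did not overlap, and the log2 difference was 4.99 ± 0.31 (SE, adjusted p = 7.39e-10).

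Branch-end reads made up a median of 19.9% ± 4.7 (SD, n = 3 courses) of the unspliced reads of members and 12.5% ± 3.1 over all introns with enough reads. RPS23A was lowest at 0.588%, 0.413% and 0.623%, and RPS30B highest at 56.9%, 77.9% and 90.3%. In this measure 16 of 17 pairs passed, 11 of them with the B copy higher and 5 with the A copy higher, where 78.7% of all 47 pairs passed. RPS7B gave 60.8%, 56.1% and 72.1% and RPS7A 2.40%, 1.97% and 2.32% (log2 A minus B -6.25 ± 0.34 SE, adjusted p = 5.60e-14). RPS23B gave 26.7%, 16.3% and 22.3%, against under 1% in RPS23A (-5.67 ± 0.33 SE, adjusted p = 2.05e-13). RPS30A, at 8.02%, 7.17% and 12.9%, was below RPS30B in each course (-5.13 ± 0.38 SE, adjusted p = 1.02e-11).

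Lariat and branch-end shares moved against each other between copies. In 13 of 17 pairs both shares passed with opposite signs and in 0 pairs with the same sign. They are parts of the same unspliced reads, so a high value of one limits the other. Joint passes were not counted over all pairs, so these counts are no result about the members. Unspliced share and lariat share passed with the same sign in 9 pairs and with opposite signs in 1, RPS21. Lariat reads are among the unspliced reads, and this too was counted in the member pairs alone. Unspliced reads that belong to neither class ranged from 11.1% in RPS7A to 89.4% in RPS6B, with a median over members of 42.1%.

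**Figure D2:**
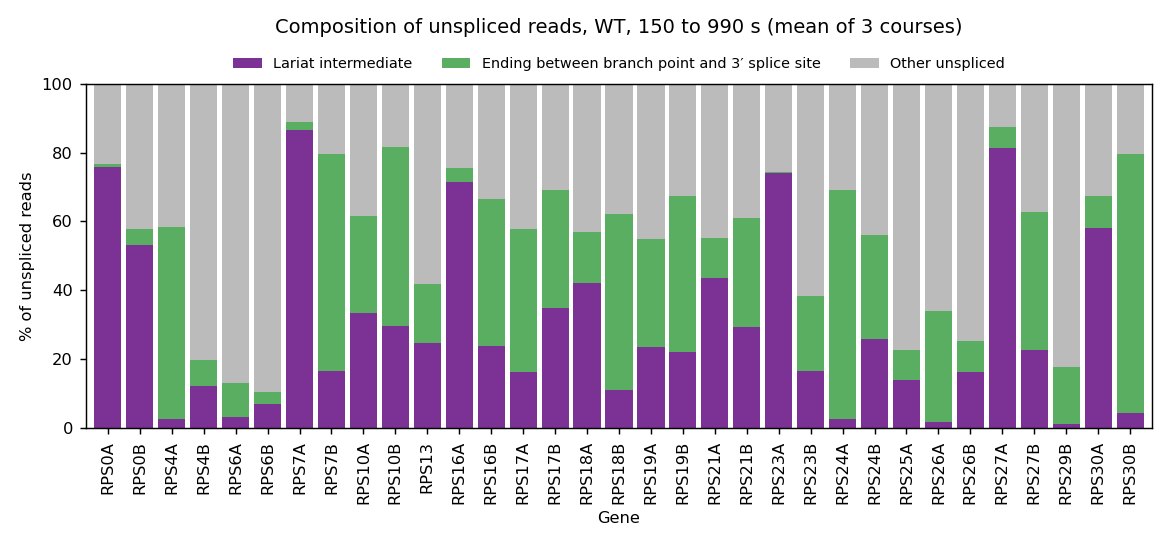
Composition of the unspliced reads of 33 members in WT, 150 to 990 s, as a percentage of unspliced reads (mean of 3 courses). Purple is lariat intermediate, green branch-end reads, which stop between the branch point and the end of the intron, grey other unspliced reads. RPS7A, RPS27A, RPS0A and RPS23A are mostly purple, RPS30B and RPS24A mostly green and RPS6A and RPS6B mostly grey.

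As a description across introns, which share libraries and each have their own primer, the share of reads ending past the branch point went with the length of that stretch (Spearman rho 0.50, Pearson r 0.39, 30 introns). In 10 of the 14 pairs with both distances, the copy with the longer stretch had the higher share. In RPS4A, with the longest stretch, the share was 55.7% ± 10.7, and in RPS4B 7.61% ± 1.29 (SD, n = 3). In RPS30 the share differed widely between copies whose distances were 39 and 40 nucleotides. The lariat share went with the percentage of T in the stretch (rho 0.48, 30 introns) and against its length (rho -0.42). Intron length showed a rho of -0.10 with the unspliced share and 0.08 with the lariat share (31 introns).

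All reads of a target, scaled to the intron reads of the library (RPM), stand for its labelled RNA within the limits of primer efficiency, so levels of different genes, copies included, also carry the efficiency of their primers. Reads from each target start at its primer and do not scale with gene length. In WT the level ran from 797 ± 218 in RPS21A to 24365 ± 1101 in RPS16A (SD, n = 3, RPM). Of 17 pairs 14 passed, 8 higher in the A copy and 6 in the B copy, beside 91.7% of all 48 pairs. RPS0A gave 1525, 1360 and 1344 and RPS0B, encoding a protein that joins late in subunit assembly, 13671, 16417 and 15977 (log2 A minus B -3.44 ± 0.12 SE, adjusted p = 7.98e-05). RPS6B, for the protein phosphorylated by growth-linked kinases, gave 12225 ± 2576 and RPS6A 2339 ± 374 (log2 A minus B -2.38, adjusted p = 4.82e-05).

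RPS7A gave 3324, 2727 and 3300 RPM and RPS7B 1196, 906 and 969, a log2 difference of 1.61 ± 0.08 (SE, adjusted p = 0.000228). In that pair the copy with more reads was thus also the one with the higher unspliced share. The copy with fewer reads had the higher unspliced share in 11 of the 17 pairs. Across the 37 members the unspliced share went down as the level went up (rho -0.60, a description, as the level is also the denominator of the share).

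**Figure D3:**
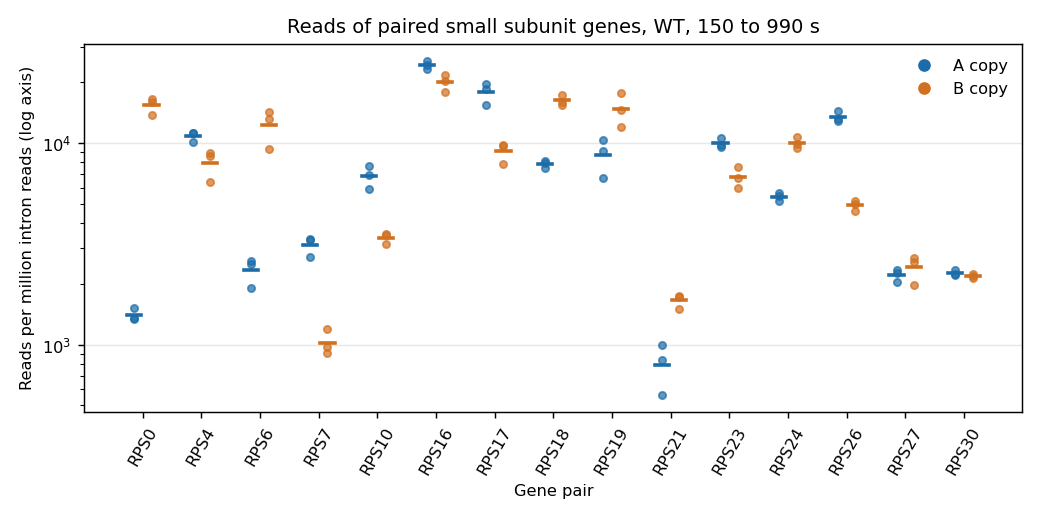
RPM (all reads of an intron over all intron reads, log axis) for 15 pairs in WT, 150 to 990 s. Points are the 3 courses and lines their mean, blue for A copies and orange for B copies. RPS0B and RPS6B lie far above their A copies, and RPS7A above RPS7B.

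Over labelling time the unspliced share of the members was highest at 120 s. At 0 s the median over members in WT stood at 0.250%. It reached 3.14% at 90 s and 5.60% ± 0.66 (SD, n = 3 libraries) at 120 s, then 1.18% at 300 s, 2.08% at 390 s and 0.516% at 990 s. These shares include the mostly spliced 0 s background, a larger part of the reads at short times. Its part in the rise from 90 to 120 s was not tested. RPS7A stood at 44.6%, 66.8% and 65.6% at 120 s and at 7.04%, 16.5% and 22.4% at 990 s, and RPS7B at 37.7%, 38.2% and 43.9% and then 3.20%, 5.73% and 7.48%. Late (540, 720 and 990 s) against early (150, 210 and 300 s), 36 of 37 members fell and none rose by edgeR's quasi-likelihood test, where 90.9% of 275 introns fell. The windows of a course were not paired in this test. The median log2 change was -1.67 in members, -1.71 in large subunit introns and -1.52 over all introns tested. The early share was 1.80 times the late share in RPS30B, a median of 3.03 times over members, and 7.09 times in RPS25A. The rule that sets the typical intron to 0 (TMM on each read state) leaves 3 members lower, since it removes the change that most introns share.

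RPS25A, a gene whose product is used in internal initiation, showed the steepest fall, from 1.92% to 5.32% in the early windows to 0.386% to 0.603% in the late ones (log2 -2.76 ± 0.38 SE, adjusted p = 2.58e-05). RPS6A (-2.44), RPS18B (-2.30), RPS4B (-2.22) and RPS6B (-2.20) followed, and early and late ranges overlapped in none of these 5. RPS13 fell from 6.30% ± 0.59 to 2.56% ± 0.36 and RPS29B from 1.17% ± 0.36 to 0.534% ± 0.050 (SD, n = 3). RPS7A (-1.62) and RPS7B (-1.88) fell as well, but without WT course 2 the change of RPS7A has an adjusted p of 0.0532 and that of RPS29B 0.0592. RPS30B was the member that did not pass, at 2.52% to 13.3% early and 1.41% to 6.82% late (-0.80 ± 0.64 SE, adjusted p = 0.243). With the course as a replicate block it passed (-0.83, adjusted p = 2.51e-05), its early value being above its late value in each of the 3 courses.

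Between copies the time change differed in 3 of 17 pairs, beside 25% of the 48 pairs. With the spread pooled over pairs, the SE was 0.24 in every member pair. In RPS30 the A copy fell more (A minus B, late minus early, -0.92 ± 0.24 SE, adjusted p = 0.00118), from 5.39% to 1.67% for RPS30A and 6.63% to 3.68% for RPS30B. In RPS10 the B copy fell more (0.84, adjusted p = 0.0033), from 3.15% to 0.805% against 1.63% to 0.721%. In RPS18 the same held (0.67, adjusted p = 0.0252), from 0.413% to 0.0860% for RPS18B and 1.85% to 0.611% for RPS18A. That of RPS18 was lost without WT course 1 (adjusted p = 0.232) or 3 (0.0863). For RPS7 the difference was 0.26 (adjusted p = 0.483).

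The lariat share of unspliced reads was also compared late against early. RPS6A had too few lariat reads. By edgeR, with the windows of a course not paired, 0 of the other 36 members passed, as 0% of 248 introns did. Of these members 9 had an unadjusted p under 0.05, and 0 passed by DESeq2. With the course as a replicate block, which fits the paired windows, 8 members fell and 2 rose. The 0% of all introns is from the fit without the block and is no measure for this count. The share of all introns passing with the block is not given here, so the count is no result about the members. RPS13 had 25.4% to 34.5% early and 12.8% to 16.7% late (log2 -1.22 ± 0.29 SE, adjusted p = 0.0974, and 0.00254 with the block). RPS7A was at 85.5% ± 4.8 and 88.2% ± 2.6, and RPS7B at 19.9% ± 5.6 and 12% ± 6.2 (SD, n = 3, adjusted p = 0.00863 with the block). RPS25A was at 13.2% ± 5.2 and 16.8% ± 1.3 and RPS29B at 1.08% ± 0.24 and 0.800% ± 0.296.

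The unspliced share was next compared between prp2-1 and WT. The median over members, 150 to 990 s, was 0.759% in prp2-1, 1 course with no replicate of its own. Of 37 members 13 fell and none rose (median log2 -0.78), where 30.7% of 283 introns fell (median -0.62). The share of members is near that of all introns and is no result about the members. The same WT courses also serve the comparison with WT_30. The lone course is taken to have the spread seen among WT courses, and the calls rest on them, with 10 members without WT course 1, 6 without course 3 and 0 without course 2 (18 then at an unadjusted p under 0.05). DESeq2 called 20 lower, without RPS30B (adjusted p = 0.142).

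RPS30B gave 0.759% in prp2-1 (95% Wilson interval 0.673% to 0.855%, counting error only) against 2.07% to 9.80% in WT (log2 -2.50 ± 0.65 SE, adjusted p = 0.0147). RPS7A gave 7.72% (7.42% to 8.02%) against 18.54% to 36.97% (-2.13 ± 0.45 SE, adjusted p = 0.00732). Both lay below all WT courses. RPS25A was at 0.438% (0.402% to 0.478%) against 1.01% to 1.73% in WT (-1.57 ± 0.37 SE). RPS16A was at 0.280% (0.260% to 0.301%) against 0.658% to 1.05% (-1.50 ± 0.35 SE). RPS27A was at 7.58% (7.28% to 7.90%) against 15.5% to 22.6% (-1.46 ± 0.36 SE). For RPS7B, at 8.63% (8.08% to 9.21%) against 10.9% to 17.7%, the adjusted p was 0.0895, for RPS13, at 3.14% against 4.81% to 5.04%, 0.0841, and for RPS29B, at 0.490% against 0.627% to 0.959%, 0.106.

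The difference between copies differed from WT in 3 of 17 pairs, beside 14.6% of 48. In RPS27 the copies lay closer together in prp2-1, with 7.58% in RPS27A and 5.40% in RPS27B (A minus B lower than in WT by a log2 value of -1.52 ± 0.43 SE, adjusted p = 0.0087). In RPS7 the order of the summed shares turned, with 7.72% in RPS7A and 8.63% in RPS7B (-1.40 ± 0.43 SE, adjusted p = 0.0151). At single times it did not always turn. RPS7A was above RPS7B at 990 s (5.56% against 3.70%) and, before the summed window, at 120 s (40.3% against 19.7%). In RPS30 the A copy, at 1.49%, was above the B copy (1.37 ± 0.44 SE, adjusted p = 0.0199). Without WT course 2 or 3 none of these 3 passed (adjusted p 0.104 to 0.569), and 4 and 2 pairs then had an unadjusted p under 0.05.

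**Figure D4:**
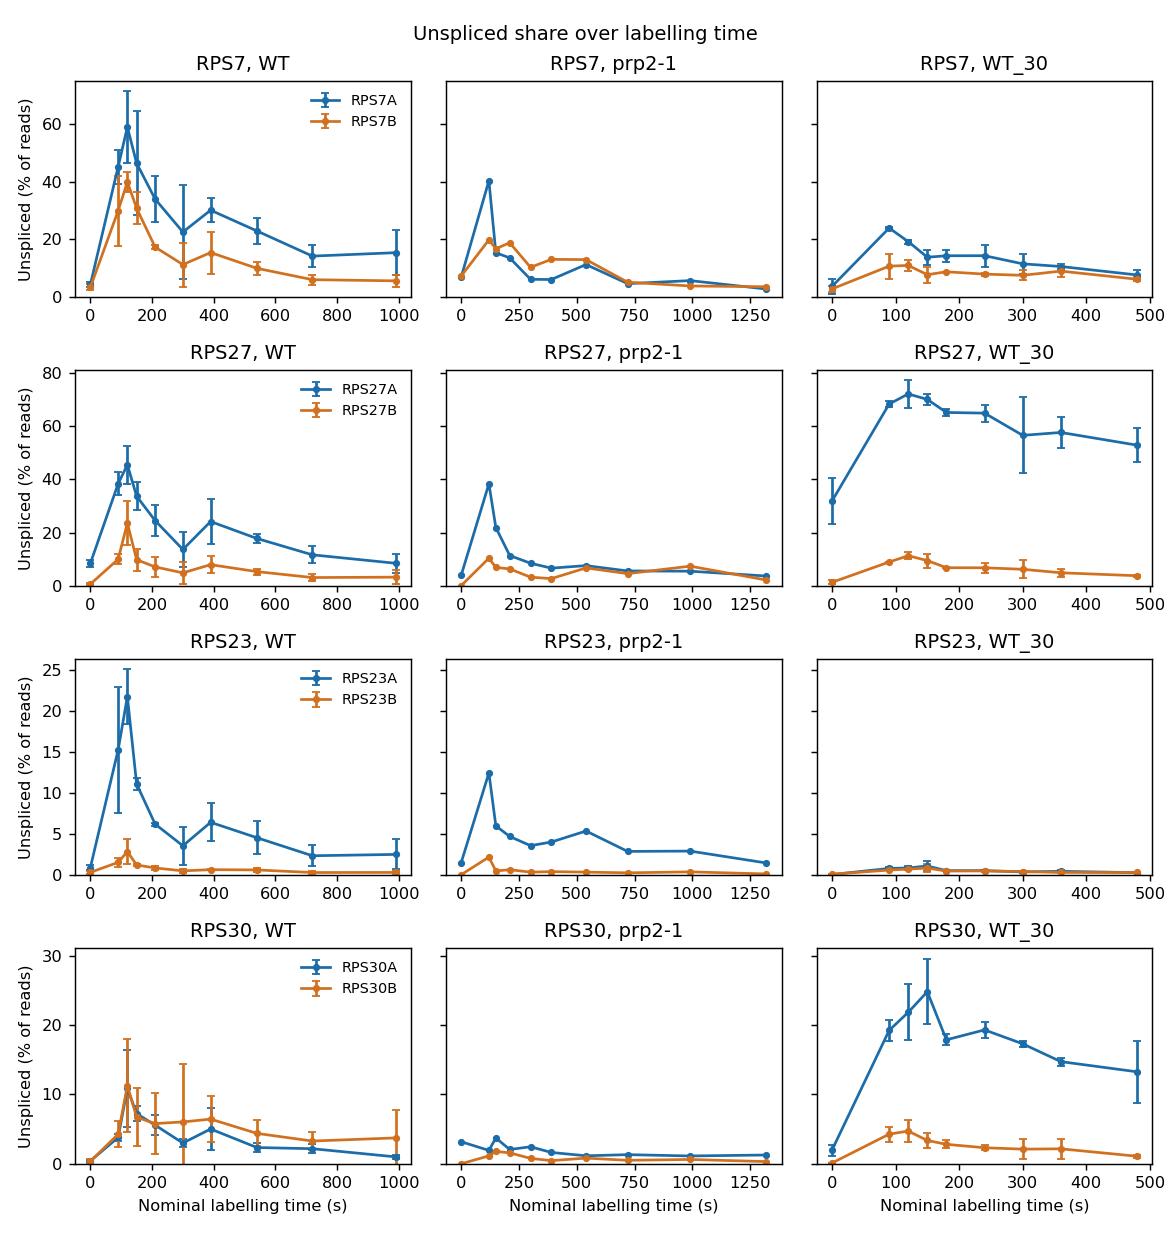
Unspliced reads as a percentage of all reads against nominal labelling time in seconds for RPS7, RPS27, RPS23 and RPS30 (rows) in WT, prp2-1 and WT_30 (columns). Points are means with SD over 3 courses in WT and 2 in WT_30, and the single first course in prp2-1, with the 3600 s point of WT_30 left out. RPS7A lies above RPS7B in WT and below it in prp2-1 from 150 to 720 s, and RPS23A lies above RPS23B in WT and next to it in WT_30.

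The lariat share in prp2-1 passed in 2 of 37 members, 1 in each direction, where 1.15% of 261 introns rose. RPS25A fell, from 9.90% to 18.4% in WT to 3.86% (2.51% to 5.89%; log2 -1.96 ± 0.56 SE, adjusted p = 0.0477), where 3.45% fell. Neither passed without WT course 3 (adjusted p 0.312 for RPS25A), nor RPS25A without course 2 (0.0987). RPS7A had 79.2% against 82.6% to 89.8% in WT and RPS7B 33.1% against 10.3% to 20.5% (adjusted p 0.386 and 0.124). RPS13 had 12.9% against 22.1% to 28.8% (adjusted p 0.163) and RPS29B 0.874% against 0.951% to 1.23% (0.854).

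In all reads 28 of 37 members fell in prp2-1 relative to WT and none rose, with TMM scaling, where 34.5% of 284 introns fell and 32% rose. The median log2 change was -1.04 in members, -1.19 in the 59 large subunit introns and -0.01 over all introns. Without TMM the median of all introns shifts to 0.57 and 16 members were lower, and with library sizes from the spike-ins it shifts to -4.18 and all 37 were lower, so changes are given relative to that median. RPS17B gave 3470 RPM against 7881 to 9797 (log2 -1.98 ± 0.21 SE, adjusted p = 0.00199). RPS10A (-1.61), RPS0B (-1.59), RPS26B (-1.53) and RPS21B (-1.49) came next, and their prp2-1 values lay below all WT courses. RPS7A and RPS7B fell by 0.95 and 1.05 (neither passed without TMM, adjusted p 0.144 and 0.111), RPS29B by 1.04 and RPS25A by 0.56, the last with no change without TMM (0.03, adjusted p = 0.89). RPS25A also missed the threshold without any 1 WT course (adjusted p 0.0576 to 0.113). RPS13 was at 1795 against 721 to 1498 (0.23, adjusted p = 0.642), and without WT course 1 it was higher (0.60, adjusted p = 0.0363). With spike-in scaling RPS13 was lower, at -3.91.

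WT_30 was set against WT over the times both series share, 90, 120, 150 and 300 s. No 0 s background was subtracted in either series, and its part at these short times was not computed. Here members moved in both directions and by wide margins. The unspliced share rose in 20 of 37 members and fell in 8, where 37.7% of 284 introns rose and 28.2% fell, and the median log2 change was 0.79 in members and 0.32 over all introns. RPS6B (YBR181C) had 0.378% to 0.722% in WT and 21.4% and 27.0% in the WT_30 courses (log2 5.97 ± 0.33 SE, adjusted p = 2.32e-11). RPS29B had 0.790% to 1.44% and then 18.2% and 22.4% (4.45 ± 0.32 SE, adjusted p = 1.19e-09). RPS23A went the other way, from 9.29% to 13.4% to 0.568% and 0.693% (-4.23 ± 0.29 SE, adjusted p = 5.45e-10). RPS17A rose to 19.3% ± 0.9 (SD, n = 2; log2 3.58) and RPS26A to 9.73% ± 1.11 (log2 3.57), both without overlap with WT. At 0 s, before label, RPS6B, RPS29B, RPS17A and RPS26A were already higher in WT_30 and RPS23A lower. RPS6B was then at 12.3% and 3.07% against 0.034% to 0.171% in WT, and RPS29B at 5.85% and 2.28% against 0.12% to 0.164%. RPS23A was at 0.007% and 0.043% against 0.566% to 1.04%. In RPS7A, RPS7B and RPS13 the 0 s ranges overlapped. The part of 0 s reads in these changes was not tested.

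RPS25A rose to 19.5% ± 4.6 from 3.50% ± 1.39 (log2 2.79), and RPS13 to 11.9% ± 0.5 from 7.28% ± 1.05 (log2 0.79, adjusted p = 0.0207), the latter not passing without either WT_30 course (adjusted p 0.123 and 0.177). Both copies of RPS7 fell, RPS7A from 44.84% ± 14.95 to 16.0% ± 0.2 (-2.07 ± 0.40 SE) and RPS7B from 26.8% ± 3.2 to 9.12% ± 1.64 (-1.88 ± 0.30 SE).

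In all reads 18 members fell and 10 rose in WT_30, where 34.5% of 284 introns fell and 37.3% rose. Without TMM the split was 15 and 14, with the median of all introns moving from 0.13 to 0.59. The largest changes were in members whose unspliced share rose. Here too the log2 changes carry the TMM factors and the RPM values do not. RPS29B went from 12190 to 14978 RPM in WT to 1159 and 1305 (log2 -3.91 ± 0.26 SE, adjusted p = 3.30e-07), RPS17A from 16537 to 22359 to 1835 and 1876 (-3.82 ± 0.26 SE), RPS6B from 9258 to 16065 to 1929 and 2104 (-3.19 ± 0.28 SE). RPS26A (-2.61) followed. RPS7A fell by 2.06 and RPS25A by 1.83, RPS13 rose by 1.20, and RPS7B differed by 0.30 (adjusted p = 0.196, and by 0.73 with an adjusted p of 0.00511 without TMM).

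Split into read states, the level of unspliced reads of members (RPM) differed by a median log2 value of 0.59 between WT and WT_30 and that of spliced reads by -0.37. RPS29B had 156 RPM of unspliced reads in WT and 249 in WT_30, and 13285 and 983 spliced ones. RPS17A had 374 and 357 unspliced and 18687 and 1498 spliced. In both genes the spliced reads changed far more than the unspliced reads. This did not hold in all members whose unspliced share rose. RPS6B, with the largest rise, had 65.8 and 486 RPM of unspliced reads and 13394 and 1531 spliced ones (log2 2.88 and -3.13). In RPS8B the unspliced reads changed more (log2 2.56) than the spliced ones (-0.42). RPS23A had 1012 and 151 RPM of unspliced reads, and 8447 and 24027 spliced ones. Across members the change of the unspliced share had a rho of -0.70 with that of spliced reads and 0.53 with that of unspliced reads (37 members, which share libraries and, by definition of the share, reads). The series differ in spike-in RNA and in their deposited tables, and the part of either in these changes was not tested.

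The difference between copies differed between the series in 12 of 17 pairs, 7 with A minus B lower in WT_30 and 5 with it higher, beside 70.8% of 48 pairs. In RPS6 it was lower by -4.52 ± 0.35 (SE, adjusted p = 1.05e-09), from 0.698% ± 0.181 in RPS6A and 0.521% ± 0.179 in RPS6B in WT (SD, n = 3) to 1.86% ± 0.19 in RPS6A and 24.2% ± 3.9 in RPS6B (SD, n = 2). In RPS23, the pair furthest apart in WT, the copies in WT_30 were at 0.631% ± 0.089 and 0.560% ± 0.080 (-3.11 ± 0.29 SE, adjusted p = 1.07e-08). In RPS26 the order turned, with 9.73% ± 1.11 in RPS26A and 5.72% ± 0.80 in RPS26B (3.09 ± 0.29 SE, adjusted p = 1.07e-08). For RPS7 the copies kept their order, and the difference between the series was -0.19 ± 0.35 (SE, adjusted p = 0.648). The RPS6 copies are 99% identical over the first 100 coding nucleotides of exon 2, those of RPS23 96% and those of RPS7 78%.

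**Figure D5:**
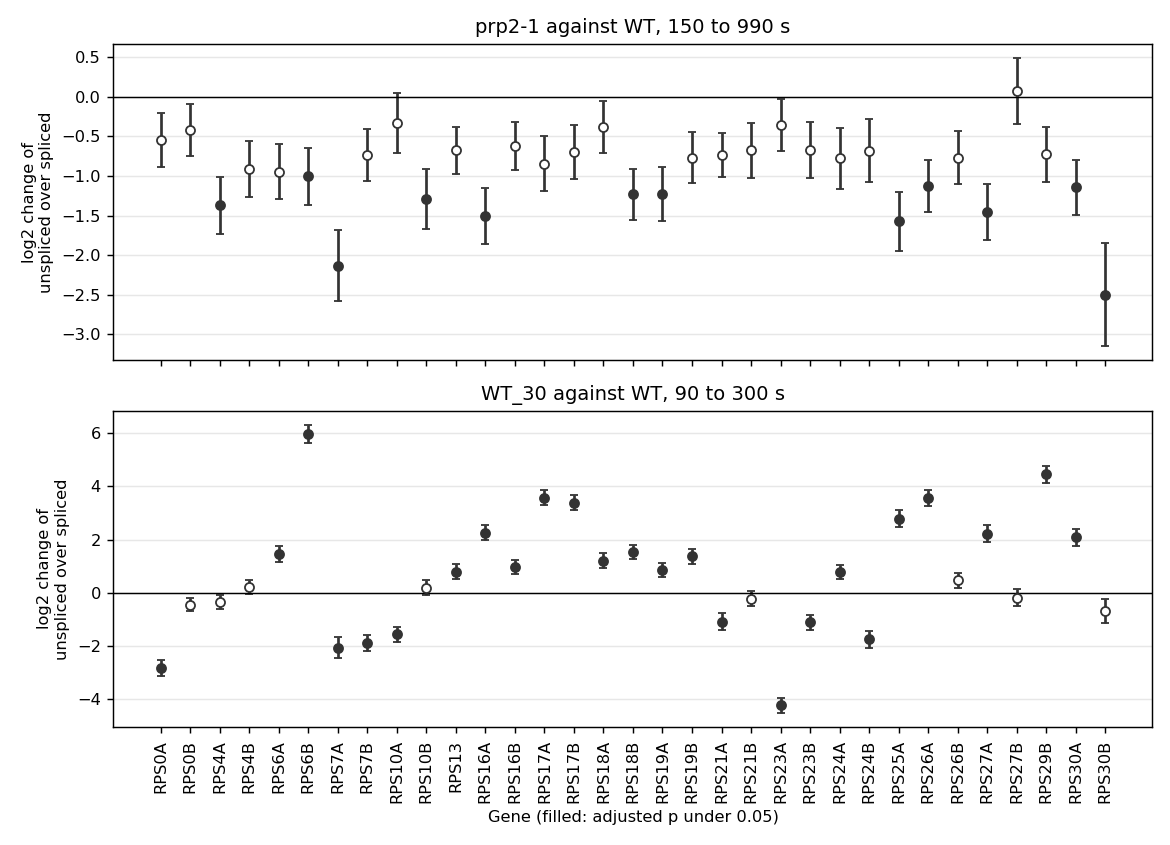
Change of the ratio of unspliced to spliced reads of 33 members on the log2 scale, with SE, in prp2-1 against WT (top, 150 to 990 s, 1 course against 3) and in WT_30 against WT (bottom, 90, 120, 150 and 300 s, 2 courses against 3). Filled points have an adjusted p under 0.05 by edgeR. Most points in the top panel lie below 0, and in the bottom panel RPS6B and RPS29B lie above 4 and RPS23A below -4.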

How the data were processed

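Whole-number counts per intron, deposited by the authors without scaling per the file headers, were used: all, unspliced, lariat intermediate, and branch to 3′ splice site reads (the first 2 only in WT_30). STAR 2.7.2b and build R64 are named in the submitters' processing notes; how reads were assigned to introns is not given in the sources used here. Spliced reads are all less unspliced reads (unspliced reads did not exceed all reads in 19093 of 19093 cells). Of the prp2-1 columns 72 (18 for each of 4 read classes) could not be tied to a sample and were not used. The intron members and lists were chosen with earlier results of these data known.

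Counts were summed per course. edgeR 4.0.16 tested group by read state (2 columns per course, library totals) and all reads (TMM), and limma 3.58.1 tested A minus B per course (pseudocount 0.5, spread pooled over pairs), in R 4.3.3, both with Benjamini-Hochberg adjustment over all introns or pairs at 0.05. Tested introns had mean counts of at least 20 unspliced and 100 total reads (lariat tests: 20 unspliced, 5 lariat). All 37 members passed, except 1 in the late and early lariat comparison. DESeq2 1.42.0 was an alternative. Fits were also run on simulated data of fixed spread, with no link between windows. That run does not show how they behave on the spread seen here. Late and early windows are pairs, since the labels place them in 1 course; their deviations had correlations of 0.648, 0.374 and 0.618. Reads are PCR-amplified without molecular identifiers, so intervals (95% Wilson) cover counting error only. Named in each comparison were the 5 members of largest change past the threshold without overlap, the 6 widest and 3 narrowest pairs, the 3 widest in other pair tests, the extremes, RPS7 and the unpaired members. Values of some members and 1 sequence are not reported here, although they enter all counts and tests.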

Additional observations from a re-analysis of the deposited data

Results flagged for a closer look

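A difference between copies that itself differed between groups of samples, by the limma test of that difference, is listed here on the log2 scale, A minus B. Late minus early in WT it was 0.84 in RPS10, 0.67 in RPS18 and -0.92 in RPS30. For prp2-1 minus WT it was -1.52 in RPS27, 1.37 in RPS30 and -1.40 in RPS7. For WT_30 minus WT it was -2.39 in RPS0, -1.76 in RPS10, -0.87 in RPS21, -3.11 in RPS23 and -4.52 in RPS6. In the opposite direction it was 1.30 in RPS16, 2.53 in RPS24, 3.09 in RPS26, 2.40 in RPS27 and 2.77 in RPS30. RPS30 is the pair present in all 3 comparisons. Their causes were not tested.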

How the results depend on the processing

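Counts of members or pairs called stayed within 1.5 times of the reported count in 100 of 116 alternatives over 14 comparisons. Late against early, TMM on each read state gave 3 members for the unspliced share in place of 36, since it sets the typical intron to 0, and RPS13 (0.15) and RPS29B (0.42) changed sign. The replicate block gave 10 for the lariat share in place of 0. For the unspliced share in prp2-1 (13 members), DESeq2 gave 20 and leaving out branch to 3′ splice site reads 23, and for its lariat share (2 members) no filter gave 0, raised minimums 1, TMM 0 and the denominator without branch reads 1. For all reads in prp2-1 (28), totals without TMM gave 16, where RPS25A changed sign (0.030), and spike-in scaling turned RPS13 (-3.91). RPS30 turned in the pair test without branch reads (1.73). The causes were not tested. Leaving out 1 course each, members called ranged over 0 to 10 for the unspliced and 0 to 4 for the lariat share in prp2-1, and pairs over 0 to 3 for prp2-1 against WT.

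The replicate block changed no other count by over 1.5 times. WT and WT_30 courses of the same number correlated at 0.0813, so the numbers do not pair them. With the block 28 members were called in the unspliced share, 26 in all reads and 12 pairs.

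Subtracting the 0 s library scaled to the library total was not run, since it removes nearly all reads; scaled by the spike-ins (chosen after seeing the data) it left 13 pairs called. WT_30 could not be counted without branch reads, as no such table of it was used here. The spread of prp2-1 could not be estimated from its 1 course.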

Other observations

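RPS27A and RPS17B had the highest unspliced shares of the members in WT_30 at 0 s. At 0 s, before label, RPS27A stood at 37.9% and 25.7% in the 2 courses and at 3600 s at 32.9% and 38.3%, while RPS27B was at 1.24% ± 0.75 and 1.08% ± 0.25 (SD, n = 2). The median over members was 0.904% and 0.777% at these times. RPS17B was at 50.4% and 24.0% at 0 s and at 5.05% and 7.28% at 3600 s, where RPS29B was at 5.29% and 5.76%. In WT at 0 s RPS27A was at 8.42%, against a member median of 0.250%. These genes were chosen after their values were seen.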
